A study of Mus musculus with 3 samples.

Results

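The 10 CXC chemokine genes Cxcl1, Cxcl2, Cxcl3, Cxcl5, Cxcl10, Cxcl12, Cxcl13, Cxcl14, Cxcl15 and Cxcl16, of 28692 genes in the count matrix, were followed through the cell classes of 3 mouse pancreatic tumours. The tumours carry the strain label KPf/fC and are called KPC tumours; in mice of this kind Cre recombinase deletes floxed p53 in the pancreas, and the labels name no age, treatment or time point. All 3 tumours are of this 1 kind, so no control tissue enters and the comparisons are between cell classes of the same tumours. Before capture a sort removed cells carrying CD45, CD31 or PDGFRa, surface proteins of blood, endothelial and many fibroblast cells respectively, and the remaining cells were sequenced with 10x 3' v2 chemistry, which counts transcripts as unique molecular identifiers (UMIs). A cell was placed in a class when it held at least 1 UMI of each of a pair of markers: Epcam and Cdh1 for epithelial, Dcn and Col3a1 for fibroblast, Rgs5 and Higd1b for mural, Upk3b and Lrrn4 for mesothelial, Pecam1 and Cdh5 for endothelial. Cells that met the rule for more than 1 class were dropped. All 10 genes were found in the matrix and none was used by the rule.

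CXC chemokines are small secreted proteins that steer leukocytes by binding to receptors of the CXCR group and to matrix glycosaminoglycans. Members with a glutamate-leucine-arginine motif before the first cysteines, among them Cxcl1, Cxcl2, Cxcl3 and Cxcl5, attract neutrophils through Cxcr2, and in pancreatic tumours they are known for recruiting such cells. Cxcl10 is an interferon-inducible ligand of Cxcr3 on T cells; Cxcl12 and Cxcl13 are the ligands of Cxcr4 and Cxcr5; Cxcl16 is made as a transmembrane protein that binds Cxcr6.

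Stretches of 4 promoters are shown first because the corresponding genes are textbook targets of NF-kB, and Cxcl10 also of interferon signalling, and because Cxcl3, Cxcl15, Cxcl1 and Cxcl2 follow each other on chromosome 5 in the reference gene table. Sequences are from RefSeq, build GRCm38.p6, which held promoters for 8 of the 10 genes; Cxcl5 and Cxcl16 had no entry. The stretches end 1 base before the annotated start for Cxcl1 (chr5:90891125-90891244, plus strand), Cxcl2 (chr5:90903779-90903898, plus strand) and Cxcl3 (chr5:90785981-90786100, plus strand), and 91 bases before it for Cxcl10 (chr5:92348980-92349139, minus strand). Capitals mark matches, on either strand, to the NF-kB-type motifs GGAATTTCC and GGGNNNTTC, which can overlap and then run together, and in Cxcl10 also to GAAANNGAA, the core of an interferon-response element.
Cxcl1: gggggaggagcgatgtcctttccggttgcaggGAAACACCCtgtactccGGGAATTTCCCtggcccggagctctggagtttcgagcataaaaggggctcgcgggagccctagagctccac
Cxcl2: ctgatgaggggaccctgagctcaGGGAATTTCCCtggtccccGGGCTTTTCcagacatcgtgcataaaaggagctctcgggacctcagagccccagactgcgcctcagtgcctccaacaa
Cxcl3: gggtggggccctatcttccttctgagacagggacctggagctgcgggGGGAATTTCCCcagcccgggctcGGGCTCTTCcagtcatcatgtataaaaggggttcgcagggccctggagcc
Cxcl10: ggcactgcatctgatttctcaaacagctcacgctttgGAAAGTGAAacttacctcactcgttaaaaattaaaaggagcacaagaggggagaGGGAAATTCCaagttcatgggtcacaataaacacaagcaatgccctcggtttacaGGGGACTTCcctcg
The form GGAATTTCC stands in all 4 stretches, 70 to 62 bases before the start of Cxcl1, 96 to 88 before that of Cxcl2, 72 to 64 before that of Cxcl3 and, on the other strand, 158 to 150 before that of Cxcl10. Searched on both strands over 250 bases before to 50 after each start, it occurs in 104 of 32851 promoters (0.317%), GGGNNNTTC in 14% and GAAANNGAA in 8.56%. Cxcl10 holds GAAANNGAA at 213 to 205 bases before its start, and of the other 7 matched members Cxcl14 holds it too, at 172 to 164; the remaining 4 matched members hold neither NF-kB form in these windows. These matches describe the letters of the windows only.

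The 3 tumours gave 5802, 6072 and 7428 cells after filtering, which held 52563899 to 67195839 UMIs per tumour. Tumours 1, 2 and 3 held 1913, 1507 and 2984 epithelial, 1841, 1914 and 2218 fibroblast, 194, 131 and 256 mural and 186, 15 and 58 endothelial cells; 4448 cells met no rule and 1626 met more than 1. The endothelial class of tumour 2 was under the 20 cells asked of a sum, so endothelial tests used 2 tumours. Cells with endothelial markers, and Pdgfra UMIs in 48.7%, 29.9% and 44.2% of fibroblast-class cells, were thus present despite the CD31 and PDGFRa gates. Each class held its own check markers, which the rule did not use, at the highest summed level of any class; Ptprc, which encodes CD45, was at 0 in the mural, endothelial and mesothelial classes. The fibroblast class of tumour 2 stood apart: its 6 check markers summed to 4056 CPM (UMIs scaled to 1000000 per class and tumour) against 11816 and 12417 in tumours 1 and 3, Lum was seen in 47.4% of its cells against 68.4% and 78.4%, and Crabp2 in 46.3% against 5.98% and 1.62%. Lingo2 was seen in 14.7% of its cells against 0.489% and 0.180%. The name fibroblast is less certain for this class in tumour 2 and is used there only because the rule gives it. Some results on that class are therefore also given with it limited to cells with a Lum UMI, or without tumour 2. The Lum limit did not make tumour 2 like the others. Tumour 2 fibroblasts with Lum still held 149.9 CPM of Crabp2 (185.6 without Lum) and 12.02 CPM of Lingo2 (38.97 without Lum). Lingo2 was at 0.523 and 0.210 CPM in the fibroblasts with Lum of tumours 1 and 3. The epithelial against fibroblast calls of Cxcl1, Cxcl5, Cxcl10 and Cxcl12 held under all 14 alternative settings, both of these checks among them. The endothelial class of tumour 3 carried 7341 CPM of haemoglobin genes. The labels do not say that the tumours came from separate animals, so p-values measure only the spread between these 3 samples.

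The chemokines divided between classes: Cxcl5 and Cxcl16 were higher in epithelial than in fibroblast cells, while Cxcl1, Cxcl2, Cxcl10, Cxcl12, Cxcl13 and Cxcl14 were lower. UMIs were summed per tumour and class and tested with edgeR's quasi-likelihood test with the tumour as a block, and p-values were adjusted by Benjamini-Hochberg over all genes tested. Of the 9 members tested in this comparison 8 passed at 0.05, 2 higher and 6 lower in epithelial cells; of all 14858 genes tested 39.6% passed, and 22.7% were lower in epithelial cells. The median log2 difference was -2.25 over the 9 members and -0.04 over all genes. Against mural cells 4 of 9 members differed (2 higher and 2 lower in epithelial cells, background 34.0%), and against endothelial cells 4 of 9 (3 higher and 1 lower, background 22.5%). Between fibroblast and mural cells 5 of 9 differed, each higher in fibroblasts (background 14.7%, or 8.75% in that direction). Fibroblasts were higher than endothelial cells in 7 of 9 (background 10.2% in that direction), where Cxcl10 and Cxcl13 rest on 2 and 1 endothelial UMIs, and mural and endothelial cells differed in 4 of 9 (background 12.4%). Most of these endothelial calls were lost without tumour 1: those of Cxcl1, Cxcl2, Cxcl5 and Cxcl16 against fibroblasts (adjusted p = 0.508, 0.138, 0.305 and 0.222), and those of Cxcl1, Cxcl2, Cxcl12 and Cxcl14 against mural cells (adjusted p = 0.0713, 0.112, 0.0652 and 0.419). Levels are given below in CPM, for tumours 1, 2 and 3 in that order. Differences are log2 fold changes ± standard error, on which 1 unit is a 2-fold difference. Levels of different chemokines are not compared, since 3' counts do not allow for how well each transcript is captured.

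**Figure D1:**
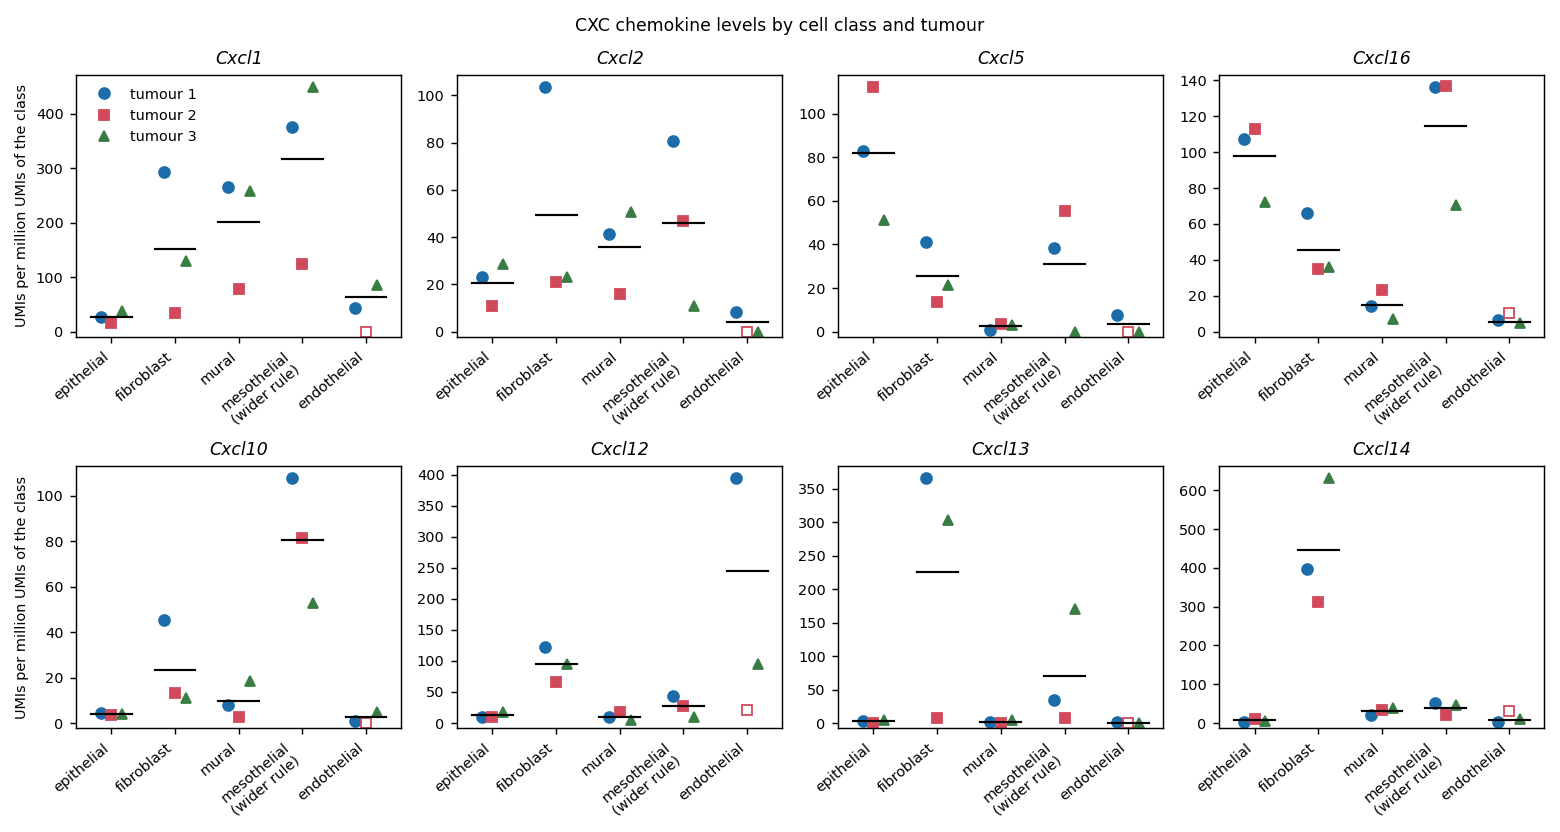
Levels of 8 chemokines (CPM, vertical axes, each from 0) in the 5 classes; each point is 1 tumour (circle tumour 1, square tumour 2, triangle tumour 3), bars are means over tumours, the mesothelial column uses the wider rule given in the text, and the open square is tumour 2's 15 endothelial cells, left out of the mean. Cxcl13 and Cxcl14 stand highest in fibroblasts, Cxcl5 in epithelial cells, and Cxcl12 in the endothelial cells of tumour 1.

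Cxcl1, a neutrophil attractant, was at 27.1, 15.6 and 37.2 CPM in epithelial cells (mean 26.6 ± 10.8, SD, n = 3) and at 293, 34.7 and 130.5 in fibroblasts (153 ± 131). Mural cells held 265, 78.9 and 259 CPM (201 ± 106), and endothelial cells 42.8 and 85.6 in tumours 1 and 3. Fibroblasts were above epithelial cells within every tumour, although the fibroblasts of tumour 2 lay below the epithelial cells of tumour 3; mural cells lay above all epithelial values. Cxcl1 was lower in epithelial than in fibroblast cells by a log2 difference of -2.25 ± 0.34 (adjusted p = 0.000142) and than in mural cells by -2.70 ± 0.36 (adjusted p = 5.15e-05). Mural and fibroblast cells, next to each other in the order, did not differ beyond their spread (fibroblast against mural -0.45 ± 0.33, adjusted p = 0.439). Fibroblasts were higher than endothelial cells by 1.90 ± 0.47 (adjusted p = 0.0122), a call lost without tumour 1, where the difference was 0.72 (adjusted p = 0.508), and with Lum-positive fibroblasts (1.60, adjusted p = 0.0608). Thinned to 3000 UMIs per cell, Cxcl1 was seen in 19.8%, 4.96% and 12% of fibroblasts, 17%, 10.7% and 15.2% of mural cells and 6.01%, 2.65% and 4.60% of epithelial cells; unthinned the epithelial shares were 13.7%, 7.23% and 8.65%, and those of fibroblasts 26.7%, 9.51% and 15.6%.

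Cxcl2, which shares the receptor of Cxcl1, was at 23.2, 10.8 and 28.4 CPM in epithelial cells, 104, 21.1 and 23.1 in fibroblasts and 41.3, 15.8 and 50.5 in mural cells. The fibroblasts of tumour 1 were the high sample, and the 3 classes overlapped. Epithelial cells were lower than fibroblasts by -1.09 ± 0.38 (adjusted p = 0.0366), with that sign in 2 of 3 tumours. This call was lost under several alternatives, among them without tumour 1 (-0.47, adjusted p = 0.439), without tumour 2 (-1.07, adjusted p = 0.0845), with Lum-positive fibroblasts (-0.32, adjusted p = 0.470), without the tumour block (adjusted p = 0.193) and with DESeq2 (adjusted p = 0.0898). Endothelial cells held 8.37 CPM in tumour 1 and no UMI in tumour 3; the epithelial excess of 2.36 ± 0.79 over them (adjusted p = 0.0475) was lost under 7 alternatives, among them each fit without tumour 1 (adjusted p = 0.150) or tumour 2 (adjusted p = 0.0578).

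Cxcl3 and Cxcl15, which precede Cxcl1 on chromosome 5, were near the limit of counting. Cxcl3, a further Cxcr2 ligand, gave 1.70, 2.82 and 0.783 CPM in epithelial cells, from 103 UMIs in all, and 0.885, 1.27 and 0.323 in fibroblasts. The epithelial value was the higher in each tumour, but the difference did not pass (1.00 ± 0.56, adjusted p = 0.193). Cxcl15, best known from lung epithelium, gave 12 UMIs in epithelial and 1 in fibroblast cells, too few for the count filter, and was not tested. Its epithelial level was 0.188 ± 0.0113 CPM (SD, n = 3), from 4, 3 and 5 UMIs, so the small SD is no measure of precision. In tumour 1 the level was 0.175 CPM in epithelial cells. Cells of more than 1 class held 0.501 CPM there and cells of no class 0.397. With the UMIs of all 3 tumours pooled, the epithelial level of 0.187 CPM was 9.44 times the fibroblast one of 0.0199, with a 95% interval of 1.40 to 403 that covers counting error only.

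Cxcl5, a neutrophil attractant known from epithelia, was at 83.1, 112 and 51.1 CPM in epithelial cells (82.2 ± 30.6, SD, n = 3). Fibroblasts held 41.3, 13.6 and 21.5 CPM, mural cells 0.897, 3.64 and 3.09, and endothelial cells 7.44 and 0. The epithelial values did not overlap those of any of these classes. Epithelial cells were higher than fibroblasts by 1.68 ± 0.34 (adjusted p = 0.00138), than mural cells by 5.16 ± 0.58 (adjusted p = 1.32e-05) and than endothelial cells by 4.14 ± 0.70 (adjusted p = 0.000733). Fibroblasts were higher than mural cells by 3.48 ± 0.63 (adjusted p = 0.00191), while their excess over endothelial cells (2.47 ± 0.72, adjusted p = 0.0310) was lost under 7 alternatives, without tumour 1 (adjusted p = 0.305) and without tumour 3 (2.17, adjusted p = 0.114) among them. Thinned to 3000 UMIs, a Cxcl5 UMI was seen in 10.8%, 15.5% and 8.95% of epithelial cells and in 0, 1 and 2 mural cells; unthinned the epithelial shares were 25%, 28.5% and 17.6% and the mural ones 0.515%, 1.53% and 1.17%. Median depth was 7734 to 10618 UMIs in epithelial and 3316 to 5415 in mural cells. The Cxcl5 calls of epithelial cells and of fibroblasts against mural cells were lost without cells holding UMIs of another class's markers. That rule left mural cells in tumour 3 only.

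Cxcl16, a chemokine anchored in the membrane and shed by ADAM proteases, was at 108, 113 and 72.5 CPM in epithelial cells (97.7 ± 22.0, SD, n = 3). It was at 66.0, 35.0 and 35.9 CPM in fibroblasts, 14.4, 23.0 and 7.21 in mural cells and 6.51 and 4.75 in endothelial cells, with no overlap between the first 3 classes. The order epithelial, fibroblast, mural passed at each step: epithelial cells exceeded fibroblasts by 1.06 ± 0.22 (adjusted p = 0.00174) and fibroblasts exceeded mural cells by 1.78 ± 0.29 (adjusted p = 0.00101). The fibroblast against mural call was lost without cells holding UMIs of another class's markers, which left mural cells in tumour 3 only. Mural and endothelial cells did not differ beyond their spread (1.44 ± 0.57, adjusted p = 0.136). The step from epithelial cells to fibroblasts was as large with Lum-positive fibroblasts (1.09) and missed the threshold without the tumour block (1.05, adjusted p = 0.0508). A Cxcl16 UMI was seen in 50.7%, 53.0% and 36.8% of epithelial cells, and in 23.6%, 27.1% and 16.3% after thinning to 3000 UMIs, against 2.06%, 6.87% and 1.32% of thinned mural cells.

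Cxcl10, the interferon-inducible member, was at 4.37, 3.46 and 4.03 CPM in epithelial cells (3.96 ± 0.458, SD, n = 3) and at 45.2, 13.3 and 11.1 in fibroblasts. Mural cells held 8.07, 2.43 and 18.6 CPM and the endothelial class 2 UMIs. The fibroblast values lay above all epithelial ones, and those of mural cells overlapped both. Epithelial cells were lower than fibroblasts by -2.43 ± 0.45 (adjusted p = 0.000663). Neither neighbouring step with mural cells passed (fibroblast against mural 1.25 ± 0.56, adjusted p = 0.169; epithelial against mural -1.18 ± 0.60, adjusted p = 0.150); without tumour 3 the first was 2.50 (adjusted p = 0.0102). Fibroblasts held 19.4 times the endothelial level over tumours 1 and 3, with a counting interval of 5.36 to 161 from the 2 endothelial UMIs.

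Cxcl12, the stromal ligand of Cxcr4, was at 394 and 95.1 CPM in the endothelial cells of tumours 1 and 3 and at 122, 66.1 and 95.2 CPM in fibroblasts (94.3 ± 27.8, SD, n = 3). Epithelial cells held 10.2, 10.3 and 17.9 CPM and mural cells 9.87, 17 and 4.12. Endothelial and fibroblast values lay above all epithelial and mural ones. Epithelial cells were lower than fibroblasts by -2.87 ± 0.41 (adjusted p = 8.19e-05) and than endothelial cells by -3.98 ± 0.51 (adjusted p = 8.64e-05), and fibroblasts were higher than mural cells by 3.34 ± 0.54 (adjusted p = 0.000786). The fibroblast against mural call was lost without cells holding UMIs of another class's markers, which left mural cells in tumour 3 only. Fibroblasts and endothelial cells did not differ beyond their spread (-1.11 ± 0.47, adjusted p = 0.135), with equal levels in tumour 3 and the endothelial class ahead in tumour 1; without tumour 1 the sign turned (0.13). The 15 endothelial cells of tumour 2 held 20.5 CPM. Cxcl12 was seen in 28.0% of thinned endothelial cells of tumour 1 (52 of 186; exact Clopper-Pearson 95% interval 21.6% to 35.0%) and in 17%, 14.1% and 12.8% of thinned fibroblasts, against 2.58%, 1.53% and 1.32% of mural cells.

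Cxcl13, the B-cell attractant, was at 366, 7.06 and 303.5 CPM in fibroblasts and at 2.32, 0.0641 and 4.70 in epithelial cells. Mural cells held 1.79, 0 and 4.12 CPM and the endothelial class 1 UMI. Fibroblasts were the high class in every tumour, but the fibroblasts of tumour 2 were 51.9 times below those of tumour 1. Cxcl13 was lower in epithelial than in fibroblast cells by -6.65 ± 0.30 (adjusted p = 1.38e-08) and higher in fibroblast than in mural cells by 6.99 ± 0.42 (adjusted p = 3.15e-07). The fibroblast check markers of tumour 2 were low too. Low Cxcl13 in tumour 2 was not limited to the fibroblast class. It was lowest there in epithelial cells as well. The same held in cells of no class (38.3, 0.364 and 162 CPM) and in cells of more than 1 class (33.6, 1.81 and 50.1). In Lum-positive fibroblasts Cxcl13 was at 209, 2.54 and 143 CPM, and the epithelial difference was -5.65 against these cells, past the threshold. The part of the makeup of that class in the Cxcl13 level was not tested.

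Cxcl14, a chemokine of stroma and skin whose receptor is debated, was at 397, 312 and 631 CPM in fibroblasts (447 ± 165, SD, n = 3). Mural cells held 21.5, 32.8 and 38.1 CPM, epithelial cells 3.76, 10.5 and 6.42 and endothelial cells 3.72 and 9.51. Values of fibroblasts, mural cells and epithelial cells did not overlap. Fibroblasts exceeded mural cells by 4.01 ± 0.31 (adjusted p = 2.14e-06), mural cells exceeded epithelial cells (epithelial against mural -2.12 ± 0.33, adjusted p = 0.000195; 8.17, adjusted p = 0.529, without cells holding UMIs of another class's markers, which left mural cells in tumour 3 only), and epithelial and endothelial cells did not differ beyond their spread (0.33 ± 0.71, adjusted p = 0.794). The epithelial difference from fibroblasts was -6.13 ± 0.32 (adjusted p = 3.02e-08), and -6.66 with Lum-positive fibroblasts. Unlike the Cxcl13 level, that of Cxcl14 in tumour 2 was within 2.02-fold of the highest tumour. A Cxcl14 UMI was seen in 34.7%, 32.4% and 39.6% of fibroblasts and 3.5%, 5.71% and 4.39% of epithelial cells, and in 24.0%, 20.6% and 33.8% against 0.993%, 1.79% and 1.66% after thinning.

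**Figure D2:**
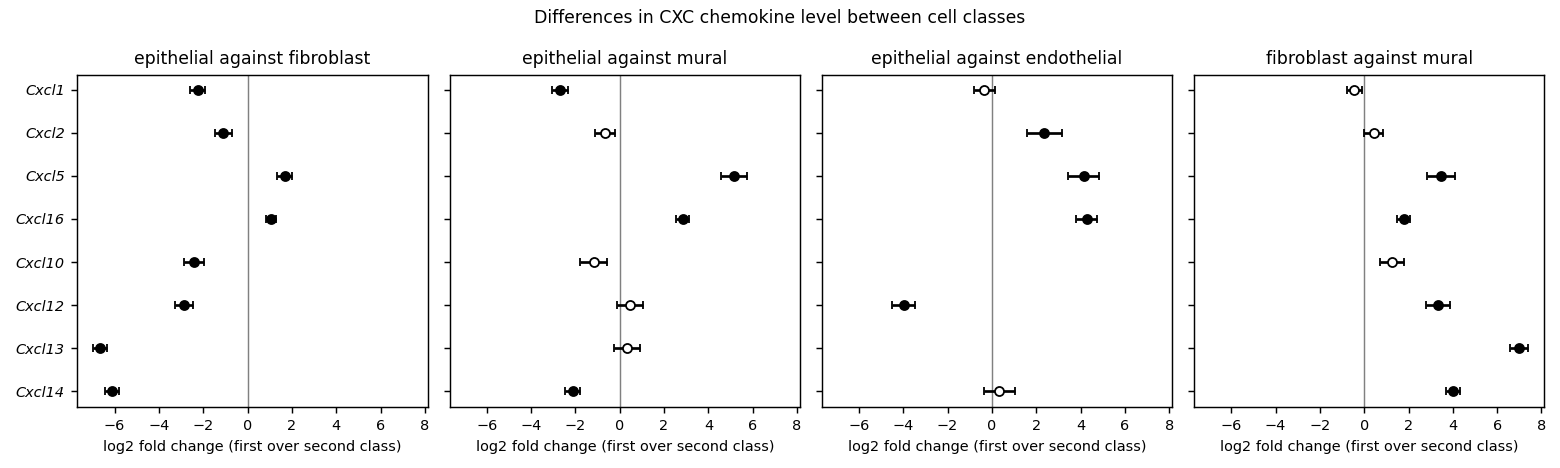
Log2 differences ± standard error for the chemokines in 4 class comparisons (horizontal axes; edgeR fit over 11 tumour and class sums); filled points passed the adjusted p of 0.05, open points did not, and Cxcl10 and Cxcl13 against the endothelial class are left out because they rest on 1 or 2 endothelial UMIs. Cxcl13 and Cxcl14 lie farthest below 0 in epithelial against fibroblast cells (-6.65 and -6.13), and Cxcl5 and Cxcl16 lie above 0 in all 4.

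In the order of classes for each gene, 10 of 27 neighbouring pairs tested passed and 17 did not; the 3 steps of Cxcl15 were not tested. Carry-over of free RNA or of a second cell was set beside the low values, using the 6 check markers of the other class as its measure. In epithelial cells the fibroblast check markers stood at a median of 1.15%, 2.88% and 0.792% of their fibroblast level and at most at 4.14%, 9.71% and 2.97%. Cxcl13 (0.632%, 0.909% and 1.55%) and Cxcl14 (0.947%, 3.37% and 1.02%) stayed within that range; low expression and carried-over RNA cannot be told apart there. Cxcl12 in epithelial cells, at 8.37%, 15.5% and 18.8% of its fibroblast level, was above the highest marker in each tumour. In mural cells Cxcl5 stood at 1.08%, 3.24% and 6.05% of its epithelial level, within the range of the epithelial markers (highest 5.46%, 5.41% and 8.02%), and Cxcl16 at 13.3%, 20.4% and 9.95%, above it. Set against fibroblasts as the source, mural Cxcl16 stood at 21.7%, 65.9% and 20.1% and mural Cxcl14 at 5.42%, 10.5% and 6.04%. The fibroblast markers in mural cells had medians of 3.75%, 18.9% and 2.53% and highest values of 23.8%, 109.95% and 28.7%. Cxcl16 was above the median in each tumour and Cxcl14 in tumours 1 and 3, and both were below the highest. In tumour 2 that highest marker stood above its fibroblast level, so it sets no limit on carry-over there. The source of these mural values was not tested. In fibroblasts Cxcl16 (61.4%, 31.0% and 49.5%) exceeded the highest epithelial marker (17.2%, 14.8% and 7.51%) in each tumour, and Cxcl5 (49.7%, 12.1% and 42.1%) in tumours 1 and 3.

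The mesothelial rule found 6, 0 and 5 cells, too few to test. Of the 240, 76 and 64 cells with both Upk3b and Lrrn4, 234, 76 and 59 also held Dcn and Col3a1 and were dropped as fitting both classes. When those cells were kept as mesothelial, a choice made after seeing the data, the class held 227, 72 and 61 cells; its 6 mesothelial check markers, Msln and Wt1 among them, summed to 3113, 2628 and 4174 CPM, against 78.1 to 304 in fibroblasts. Nearly all of these cells shared Dcn and Col3a1 with the fibroblast class. Without the cells that Scrublet, a doublet finder, marked, the wider class held 226, 72 and 61 cells. Whether a cell was a mixture of 2 cells in a droplet or held both programmes was not tested. Their median depth was 9819, 8956 and 8263 UMIs.

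In this wider class Cxcl10 was at 108, 81.4 and 52.6 CPM (80.6 ± 27.6, SD, n = 3), above the fibroblast values of all 3 tumours. Fibroblasts were lower by -2.04 ± 0.41 (adjusted p = 0.00343), a call that just missed the threshold without the tumour block (-1.91, adjusted p = 0.0514). Cxcl1, at 376, 124 and 450 CPM, was above the fibroblasts of the same tumour in each case and overlapped them across tumours (fibroblast against mesothelial -1.29 ± 0.32, adjusted p = 0.0130). That call was lost without tumour 2 (-1.09, adjusted p = 0.0509) and without tumour 3 (-1.08, adjusted p = 0.178). Cxcl16, at 136, 137 and 70.8 CPM, was the third chemokine to be lower in fibroblasts (-1.39 ± 0.22, adjusted p = 0.000639), and it did not differ beyond its spread from epithelial cells (-0.34 ± 0.22, adjusted p = 0.248).

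Cxcl14 ran the other way, at 50.3, 20.7 and 45.4 CPM in the wider class, below every fibroblast value (fibroblast against mesothelial 3.29 ± 0.37, adjusted p = 4.66e-05). Cxcl12, at 44, 27.6 and 9.07 CPM, was also lower than in fibroblasts (1.64 ± 0.47, adjusted p = 0.0285), a call lost without tumour 1 (1.94, adjusted p = 0.102) and without tumour 3 (1.2, adjusted p = 0.0514). Cxcl13, at 34.0, 6.90 and 170.5 CPM, was lower as well (1.83 ± 0.43, adjusted p = 0.00911), with nearly equal levels in tumour 2; that call was lost without tumour 1 (0.55, adjusted p = 0.359) and with DESeq2 (1.42, adjusted p = 0.0804). In all, 6 of 8 members tested differed from fibroblasts, 3 in each direction (background 8.29% higher and 8.75% lower in fibroblasts), and only 2 passed without the tumour block. Against epithelial cells 4 of 8 differed, each higher in the wider class (background 39.6%, or 20.9% in that direction): Cxcl1, Cxcl10, Cxcl13 and Cxcl14. Cxcl2 and Cxcl5 passed in neither comparison (fibroblast against mesothelial -0.25 ± 0.50 and -0.32 ± 0.53).

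**Figure D3:**
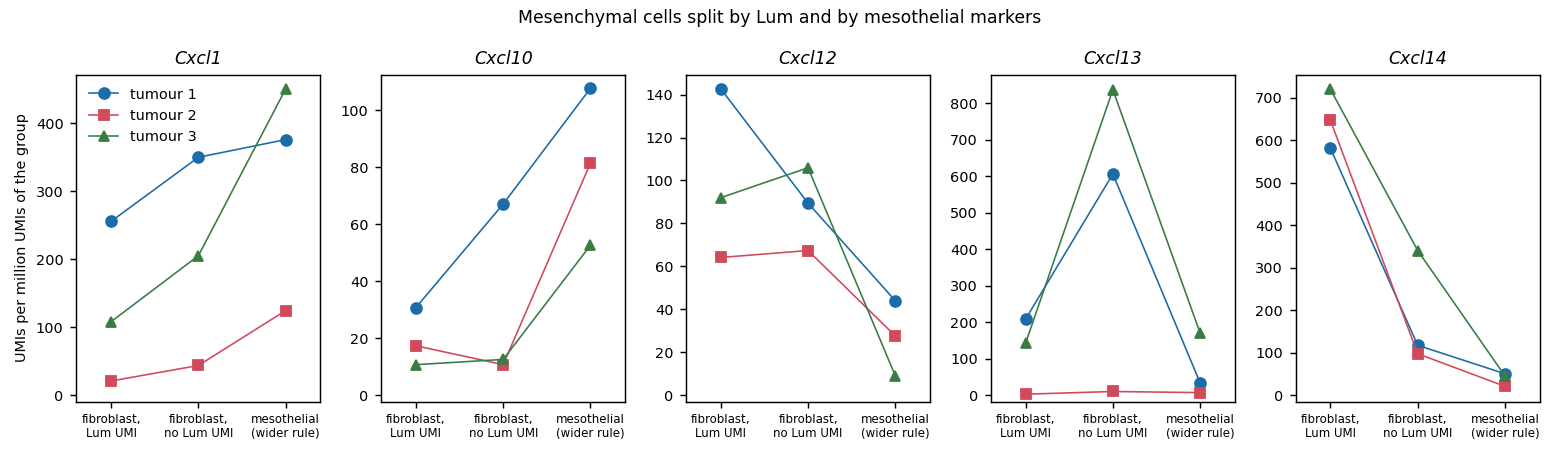
Levels of Cxcl1, Cxcl10, Cxcl12, Cxcl13 and Cxcl14 (CPM, vertical axes) in fibroblasts with a Lum UMI, fibroblasts without one and the wider mesothelial class, with 1 line per tumour. Cxcl10 is highest in the wider mesothelial class of each tumour (108, 81.4 and 52.6), and Cxcl14 in fibroblasts with Lum (580, 646 and 719).

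Within the fibroblast class some chemokines differed with Lum, which encodes the matrix proteoglycan lumican. Cxcl14 was at 580, 646 and 719 CPM in cells with a Lum UMI and at 117, 97.4 and 340.1 in cells without. Cxcl13 lay on the other side, at 209, 2.54 and 143 CPM with Lum against 606, 9.96 and 837 without, and Cxcl1 likewise, at 256, 20.8 and 108 against 350, 43.6 and 205. The direction was the same in all 3 tumours for each of these genes. It was mixed for Cxcl12 (143, 64.1 and 92.0 CPM with Lum against 89.5, 67.4 and 105.9 without), Cxcl10 (30.8, 17.3 and 10.7 against 67.1, 10.7 and 12.5), Cxcl5 and Cxcl16; cells of 1 tumour are not replicates and no test was run. Cells with Lum were the shallower ones in each tumour (median 6660, 7788.5 and 4931 UMIs against 9460, 11109 and 5190 without), so the same was looked at after thinning every cell to 3000 UMIs: Lum was seen in 72.0%, 59.9% and 79.4% of Cxcl14-positive against 56%, 29.0% and 67.9% of Cxcl14-negative fibroblasts. Among Cxcl13-positive fibroblasts Lum was seen in 38.3% (tumour 1) and 32.6% (tumour 3) against 61.3% and 73.9% of the rest, and of the mesothelial markers Wt1 in 42.5% and 36.8% against 19.8% and 16.8%, and Nkain4 in 21.7% and 33.7% against 8.83% and 5.20%. Gpm6a went the same way (5.83% and 4.21% against 2.44% and 1.85%), and Upk1b differed little (4.17% and 12.6% against 3.02% and 12.4%). The mesothelial markers did not all go that way: Msln was seen in 5.83% and 9.47% of Cxcl13-positive fibroblasts against 10.1% and 11.6% of the rest, and Muc16 in none against 0.407% and 0.168%. Fibroblast-class cells with a UMI of Upk3b or Lrrn4 (128, 60 and 73 cells) held 727, 163 and 457 CPM of Cxcl1 against 252, 30.3 and 115 in the others. For Cxcl13 this split was mixed, at 148, 27.9 and 1116 CPM against 387, 6.36 and 266.

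Single cells differed in how much of a chemokine they held. Among the 3000 UMIs of a thinned fibroblast, up to 158 were Cxcl13 in tumour 1 and up to 13 in tumour 2, although only 6.52%, 0.627% and 5.05% of these cells held any in tumours 1, 2 and 3. For Cxcl14 the highest cells held 91, 89 and 69 UMIs, and the 10% of fibroblasts with the most held 85.4%, 90.0% and 76.0% of them. Cxcl16 reached at most 5 UMIs in a thinned epithelial cell and 4 in a fibroblast. Highest counts depend on the level of a gene and are not compared between chemokines. The 10% of fibroblasts with the most Cxcl16 held 67.2%, 88.5% and 100% of its UMIs. A share of 100% means that at most 10% of the cells held any.

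Some members were seen in the same fibroblasts and others apart, again at 3000 UMIs per cell. Cxcl1 was seen in 64.2%, 42.9% and 50% of Cxcl2-positive fibroblasts (106, 56 and 36 cells) and in 17.1%, 3.82% and 11.2% of the rest. Epithelial cells showed the same pair, with Cxcl1 in 40%, 34.8% and 33.9% of 45, 23 and 56 Cxcl2-positive cells against 5.19%, 2.16% and 4.02%. Cxcl12 was seen in 51.7% and 47.4% of Cxcl13-positive fibroblasts of tumours 1 and 3 against 14.6% and 10.9% of the rest. Cxcl14, in contrast, was seen in 9.17% and 12.6% of those Cxcl13-positive cells against 25% and 35%, and in 17.3%, 11.2% and 19.6% of Cxcl12-positive against 25.4%, 22.1% and 35.9% of Cxcl12-negative fibroblasts. Tumour 2 had too few Cxcl13-positive fibroblasts for these shares. They are shares of cells within a tumour and were not tested.

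**Figure D4:**
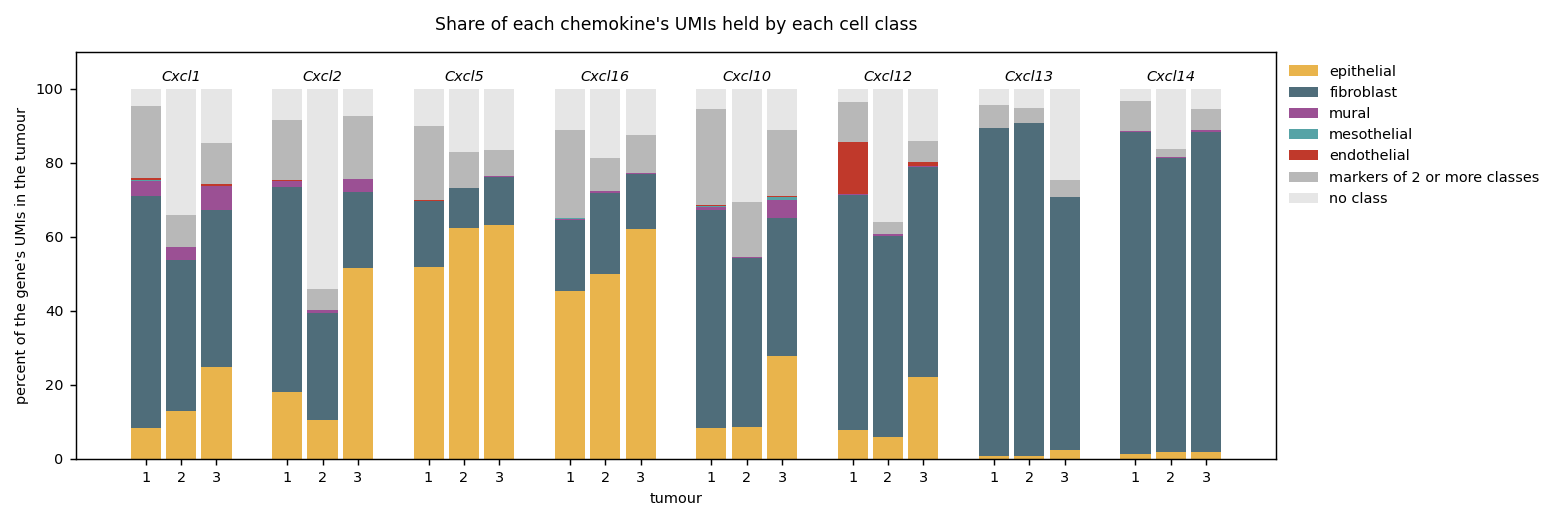
Share of each chemokine's UMIs (percent, stacked bars, 1 bar per gene and tumour) in the cells of each class, of more than 1 class and of no class. Fibroblasts hold 79.4% to 87.0% of Cxcl14 UMIs, and epithelial cells 51.8% to 63.2% of Cxcl5 UMIs; the cells of no class hold 54.1% of the Cxcl2 UMIs of tumour 2.

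Counted by UMIs and not by level, the fibroblast class supplied 62.6%, 40.8% and 42.3% of all Cxcl1 UMIs and the epithelial class 8.37%, 12.9% and 24.8%. Fibroblasts supplied 88.6%, 90.2% and 68.5% of Cxcl13 UMIs, while mural cells gave at most 6.57% of the UMIs of Cxcl1. The endothelial class, for all its Cxcl12 level in tumour 1, supplied 14% of Cxcl12 UMIs there and 0.962% in tumour 3. Such shares depend on how many cells of a class passed the sort.

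Receptors of these ligands differed in whether they were seen at all. Cxcr1 and Cxcr5 gave no UMI in any class, Cxcr3 was seen in the fibroblasts of tumour 2 only (0.0452 CPM), and Cxcr2 stayed at or under 1.03 CPM. Cells carrying CD45 were sorted out before capture, so these values do not describe the leukocytes of the tumours. Of the 10 receptors on the list 6 could be tested, and 4 of them were lower in epithelial than in endothelial cells (22.5% of all genes differed in either direction): Ackr1, the Duffy scavenger of neutrophil chemokines (-9.15 ± 0.86, adjusted p = 5.33e-06), Cxcr4, Ackr2 and Ackr3. Cxcr4, the Cxcl12 receptor, was at 49.3 and 47.5 CPM in endothelial cells and at 1.88, 3.34 and 1.96 in epithelial cells (-4.39 ± 0.73, adjusted p = 0.000637). Ackr1 was at 282 CPM in the endothelial cells of tumour 1 and at 0 in those of tumour 3. Epithelial cells were lower than fibroblasts in 3 of the 6 (background 22.7% in that direction), and no receptor passed between epithelial or fibroblast and mural cells.

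The remaining CXC genes on the list, Cxcl9, Cxcl17, Pf4 and Ppbp, were all tested between epithelial and fibroblast cells, and 3 were higher and 1 lower in epithelial cells (background 39.6% in either direction). Cxcl17, a mucosal chemokine, was at 36.3, 55.7 and 48.9 CPM in epithelial cells and at 3.16, 1.99 and 3.23 in fibroblasts (4.02 ± 0.28, adjusted p = 1.62e-07). Cxcl9, which like Cxcl10 is induced by interferon, was at 4.55, 3.76 and 3.39 CPM in fibroblasts and at most 0.0783 in epithelial cells (-6.12 ± 0.67, adjusted p = 1.2e-05). Of 5 proteases that trim or shed chemokines, 1 was higher and 3 lower in epithelial than in fibroblast cells (background 39.6%, or 22.7% lower). Dpp4, which inactivates several CXC ligands, was lower (-2.69 ± 0.44, adjusted p = 0.000238); at 55.8, 46.9 and 58.1 CPM it was highest in the wider mesothelial class, above fibroblasts at 11.5, 3.44 and 9.11 (fibroblast against mesothelial -2.92 ± 0.40, adjusted p = 0.000203). Adam10, which sheds Cxcl16, was the protease higher in epithelial cells (0.53 ± 0.17, adjusted p = 0.0273).

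Among 10 receptors for inducing signals, 1 was higher and 4 were lower in epithelial than in fibroblast cells, which is near the background of 39.6%. Il1r1, the interleukin-1 receptor that induces Cxcl1, was at 9.39, 9.30 and 7.68 CPM in epithelial cells and at 113, 25.7 and 95.1 in fibroblasts (-3.0 ± 0.40, adjusted p = 4.21e-05). Among fibroblasts it was lowest in tumour 2, where the fibroblast check markers were low too. Whether Il1r1 bears on the Cxcl1 level was not tested. Of 9 NF-kB and mRNA-decay genes 1 was lower in epithelial cells than in fibroblasts, the feedback inhibitor Nfkbia (-0.70 ± 0.22, adjusted p = 0.0229). Between fibroblasts and the wider mesothelial class 4 of the 9 NF-kB genes were lower in fibroblasts (background 8.75% in that direction), with a median difference of -0.83 against 0.11 over all genes. Irf7, an interferon-regulatory factor, stood at 8.41, 9.09 and 6.05 CPM in fibroblasts and at 45.3, 75.9 and 25.4 in that class (-2.63 ± 0.34, adjusted p = 0.000122), and Nfkbia at 438, 207 and 227 against 813, 560 and 709 (-1.38 ± 0.22, adjusted p = 0.000583).

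Genes with the most similar pattern were found by Pearson r of log2(CPM + 1) over the 11 tumour and class sums, among 8271 genes with a mean of at least 10 CPM; the sums share tumours and the r is a description. Closest to Cxcl5 was Il18 (r = 0.96), to Cxcl13 Svep1 (0.98), to Cxcl14 Tmem119 (0.96), to Cxcl16 Tmem205 (0.98) and to Cxcl12 Dab2 (0.96). Closest to Cxcl1 was Borcs7 (0.95), to Cxcl2 Akt2 (0.93) and to Cxcl10 Scd1 (0.87). Among the members themselves Cxcl5 and Cxcl16 were most alike (0.91), followed by Cxcl13 and Cxcl14 (0.80).

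The authors' deposited table gives, for each of 19 clusters of their own, a log2 value and its adjusted p. In the authors' deposited table, cluster 9, which leads in Upk3b (8.40) and also holds Dcn (3.14), has Cxcl1 at 3.52 (adjusted p = 2.55e-14), Cxcl10 at 3.88, Cxcl13 at 4.52 and Cxcl2 at 2.74 (adjusted p = 2.52e-05). The cells against which each cluster is set are not stated, so this Cxcl13 value is not the same measure as the class differences here. In the edgeR fit the wider mesothelial class was lower in Cxcl13 than fibroblasts. It was higher than epithelial cells (epithelial against mesothelial -4.87 ± 0.49, adjusted p = 2.73e-06). Cluster 11 of the authors' deposited table, with Dcn (3.36) and Lum (3.58), has Cxcl12 at 3.00 and Cxcl13 at 2.69, and cluster 18, with Pecam1 (8.80), has Cxcl12 at 2.93 (adjusted p = 0.00613). Cxcl14 has its highest values in the authors' deposited table in cluster 4 (3.63) and cluster 2 (2.92), both with raised Lum (2.39 and 3.36), Cxcl5 in cluster 7 (1.76) and cluster 8 (1.64), and Cxcl16 and Cxcl3 in cluster 3 (1.63 and 2.50).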

How the data were processed

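Cell Ranger 2.1.1 and Seurat 3.0 are named, without roles, in the submitters' processing notes; the build was not given in the sources used here. UMI counts of all 3 tumours, whole numbers and not normalized, stand in a single matrix that the authors deposited; the barcode suffix gives the tumour, per the labels. Per the file headers, a second deposited table gives log2 fold changes and adjusted p-values for the authors' own clusters; it was copied without a test. The members, gene lists, class markers and tests were chosen with earlier results of these data known. Named genes were the 10 members, those a sentence names from 6 lists fixed with the design, and the 3 most similar genes of each member, of which the closest is printed. Part of the study's genotype and 1 of the 6 lists, as a list, are not reported here.

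Barcodes with under 500 genes or over 20% mitochondrial counts were left out. Tumours shared 50 to 65 barcode sequences in pairs. Scrublet (in scanpy 1.11.5) marked 1.28% to 1.94% of cells, which were kept except in an alternative. Counts were summed per tumour and class (at least 20 cells; 11 sums) and fitted together with edgeR 4.0.16 in R 4.3.3 (TMM, filterByExpr, quasi-likelihood test, Benjamini-Hochberg at 0.05), without the 10 marker genes. Classes of a tumour come from the same sorted sample, so the tumour was a block. A second fit of the same kind added the wider mesothelial class. The standard error of a log2 difference is its size over the square root of F. Shares of cells were also computed after thinning to 3000 UMIs, without shallower cells. Intervals are exact and cover counting error at 95%. The fitting code was also run on simulated sums with the same spread for every gene and changes in epithelial sums only. That run checks the code and not the error rates at the spread of these data. Alternatives were DESeq2 1.42.0, RLE size factors, no low-count filter, only the classes compared, each tumour left out, no block, other class rules, no cell filter, doublets removed and thinned cells.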

Additional observations from a re-analysis of the deposited data

Results flagged for a closer look

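Cells that met no class rule entered no comparison but held a part of several members' UMIs. Values over 30% of a member's UMIs, with at least 100 UMIs in the tumour, are listed here as a signal outside the comparisons. In tumour 2 these cells held 54.1% of the Cxcl2 UMIs, 36.2% of Cxcl12, 34.2% of Cxcl1, 38.7% of Cxcl3 and 30.6% of Cxcl10. In tumour 1 they held 39.8% of the Cxcl3 UMIs. The number of such cells was 811, 2208 and 1429 in tumours 1, 2 and 3, so tumour 2 had the most.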

How the results depend on the processing

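Of 42 member comparisons that passed, 40 were refitted and 2 were left out for low counts. Of the 40, 20 kept their call under every alternative run, 19 lost it under at least 1, and 2 changed sign, 1 of them also losing its call elsewhere. The paired design has the tumour as a block; with no replicate block, 3618 genes passed in place of 5888 between epithelial and fibroblast cells, 3358 in place of 5051 between epithelial and mural, 2075 in place of 3347 between epithelial and endothelial, 1099 in place of 2177 between fibroblast and mural and 935 in place of 1982 between fibroblast and mesothelial cells; 2 chemokines passed in place of 6 in the last and 6 neighbouring pairs in place of 10 (of the 23 refitted, without 4 of low counts). Leaving out 1 tumour at a time gave 3941 to 5259 genes between epithelial and fibroblast, 3154 to 4433 between epithelial and mural, 2498 to 4117 (4602 with all) between epithelial and mesothelial, 773 to 3615 between epithelial and endothelial, 1037 to 2028 between fibroblast and mural and 708 to 1517 between fibroblast and mesothelial cells, each lowest without tumour 1; without it the endothelial class has 1 sum, assumed to vary like the others.

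Dropping cells with any UMI of another class's markers left mural sums in tumour 3 only (41 cells), with 875 genes and 2 chemokines against epithelial cells, 339 and 2 against fibroblasts, and 6 neighbouring pairs; the mesothelial class was empty. Thinned cells gave 3018 genes for epithelial and 1303 for fibroblast against mesothelial cells. In the former 8 chemokines passed without a filter on low counts and 7 with only the 2 classes compared.

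Signs turned mostly where no call was made. Leaving out 1 tumour at a time gave these ranges: Cxcl12 in epithelial against mural cells -0.27 to 1.14, Cxcl1 and Cxcl14 in epithelial against endothelial cells -0.85 to 0.046 and -0.0078 to 0.67, Cxcl2 in fibroblast against mural cells -0.26 to 1.10, Cxcl2 and Cxcl5 in fibroblast against mesothelial cells -0.65 to 0.12 and -0.90 to 0.40, Cxcl12 in fibroblast against endothelial cells -1.80 to 0.13 and Cxcl5 in mural against endothelial cells -1.62 to 7.96. With no UMI of another class's markers, Cxcl13 and Cxcl14 in epithelial against mural cells were -0.71 and 8.17 (Cxcl14 is a call of -2.12 otherwise), Cxcl1 against endothelial cells 0.36, Cxcl2 in fibroblast against mural cells -0.14 and Cxcl14 and Cxcl16 in mural against endothelial cells -6.88 and -7.33 (Cxcl14 is a call of 2.46 otherwise). Thinning gave 0.054 for Cxcl1, and only the 2 classes compared gave -0.049 for Cxcl14, both in epithelial against endothelial cells; Lum-positive fibroblasts, chosen after seeing the data, gave -0.32 for Cxcl2 against mural cells. Sizes of 6 and more come from sums at or near 0 and are no bound. The causes were not tested. The mesothelial class by its own rule (6, 0 and 5 cells) could not be fitted under any alternative, and depth limits Cxcl3, Cxcl15 and the endothelial values of Cxcl2, Cxcl10 and Cxcl13.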
